A study of Mus musculus with 12 samples.

Results

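The regions described here are the H3K27ac peaks of mouse embryonic stem cells (mESCs) that overlapped neither a Ctr9 peak of the same cells nor an H3K27ac peak of NIH3T3 fibroblasts. They were selected on peak coordinates alone, with an overlap of 1 bp counting as shared, and they numbered 8117 of 19417 mESC H3K27ac peaks. The other peaks fell into 2148 that were mESC-only but met Ctr9, 6821 that were shared with NIH3T3 cells without Ctr9, and 2331 that were shared and met Ctr9. The study asked where Ctr9, a core subunit of the Paf1 complex, binds in each cell type and at which enhancers.

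All mESC libraries came from the E14 line and all fibroblast libraries from NIH3T3, an established line of mouse embryonic fibroblasts. For ChIP-seq of Ctr9, a GFP tag had been knocked in at its C terminus in each line and GFP-positive cells were collected by sorting, and for NELFA a GFP-tagged mESC line was used, both precipitated with an antibody against GFP. H3K27ac (mESCs and NIH3T3 cells), RNAPII Ser5p and RNAPII Ser2p (mESCs) were precipitated with antibodies against the mark itself, for Ser5p in the NELFA-tagged line. No treatment separated the libraries, and both lines grew in the same serum and LIF medium. Each of the 7 peak lists and 2 RNA-seq tables came from 1 library, so no value below has a replicate and no test across replicates was possible. Brackets after a share hold the 95% exact Clopper-Pearson interval, and those after a median hold the 95% order-statistic interval. Both cover counting error or the spread among peaks or genes of 1 library only. The RNA-seq libraries held 26400407 (mESC) and 28849497 (NIH3T3) estimated counts. The depth reached by each ChIP-seq library is unknown, since the lists hold no read counts and the methods give only an intended number of reads.

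H3K27ac is an acetylation of histone H3 that is found at active promoters and enhancers. At a transcribed promoter, RNA polymerase II (RNAPII) is phosphorylated at Ser5 of its C-terminal domain early in transcription and at Ser2 during elongation. NELF, of which NELFA is a subunit, holds the polymerase soon after the start, and the Paf1 complex travels with elongating polymerase.

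The labels matched the markers of both lines. All 8 mESC markers were at least 2-fold higher in mESCs, with a median TPM (transcript abundance scaled for length and library size) of 284 in mESCs against 0 in NIH3T3 cells. In bulk libraries such as these, fewer cells that express a gene and less RNA per cell cannot be told apart. All 10 fibroblast markers were at least 2-fold higher in NIH3T3 cells, with a median TPM of 181 there and 1.23 in mESCs. Of the 4 trophoblast and 4 primitive endoderm markers, the median TPM in mESCs was 0.824 and 0.231, but 2 trophoblast markers were at least 2-fold higher in mESCs, Krt8, a keratin gene (TPM of 39.2 against 0), and Eomes (1.38 against 0).

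A large part of these regions turned out to be copies of repeated sequence. Of the 8016 peaks without Ctr9 that lay on assembled chromosomes, 3333 (41.6%) shared a stretch of 30 identical bases within 100 bp of the summit, on either strand, with at least 1 other. In the class with Ctr9 this held for 304 of 2145 (14.2%), and in the shared classes for 172 of 6813 (2.52%) and 53 of 2331 (2.27%). A share of this kind grows with the number of peaks compared, and the shared class without Ctr9 is of nearly the same size as the class described. Joining peaks through such stretches gave 12 families of 10 or more members, which together held 3098 peaks (38.6%). Families 1, 2 and 3 held 1818, 580 and 462 of them, and family 4 held 66. The most frequent stretch of each of these 4 families is printed, because these letters tie together peaks on different chromosomes.

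family 1: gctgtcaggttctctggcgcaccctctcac
family 2: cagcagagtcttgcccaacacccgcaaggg
family 3: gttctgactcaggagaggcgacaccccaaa
family 4: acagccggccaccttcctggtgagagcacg

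The stretch of family 1 was present in 1141 of its 1818 peaks (62.8%), that of family 2 in 427 (73.6%), that of family 4 in 55 (83.3%) and that of family 3 in only 50 (10.8%). In the mm10 genome, the stretch of family 1 occurred 5437 times at 1938 loci (copies within 1 kb joined). Of the 3498 distances of up to 1 kb between successive copies, 92.4% were 212 bps, so neighbouring copies of this stretch mostly lay in tandem with a unit of 212 bps. The stretch of family 2 occurred 6448 times at 2604 loci, with 208 bps between successive copies in 79.3% of 3844 cases. The stretch of family 3 occurred 523 times at 521 loci, so that hardly any copies were tandem. Families 1 and 2 were GC-rich (median GC content 62.7% and 62.5%), and family 3 was of lower GC content (44.3%). No annotation of repeats was used, so the families are given here by number.

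The strongest peak of family 1 had a fold enrichment of 11.2 and lay 207 kb upstream of Rarb, a retinoic acid receptor gene, outside of protein-coding genes. A stretch of about 1 unit length at it, on the plus strand at chr14:17025657-17025869 (mm10), is shown to place the 8 letters GCCATCTT (capitals) within the unit, a core known from binding sites of the factor Yy1.

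Rarb: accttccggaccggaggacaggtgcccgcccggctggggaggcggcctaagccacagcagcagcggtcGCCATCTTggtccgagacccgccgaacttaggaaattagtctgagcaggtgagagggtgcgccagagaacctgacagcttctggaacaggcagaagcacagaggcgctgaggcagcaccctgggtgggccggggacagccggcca

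The core, on either strand, was present within 100 bp of the summit in 1378 of the 1818 peaks of family 1 (75.8%) and in 62 of 66 of family 4 (93.9%). It was found in 0 of 580 peaks of family 2 and 1 of 462 of family 3. Over all peaks without Ctr9 it was present in 18.8% (18% to 19.7%), against 1.36% (1.06% to 1.73%) outside the families and 1.72% (1.22% to 2.37%) in the mESC-only class with Ctr9. In windows of the same length it was found in 1.5% of positions 2 kb to either side of the peaks and in 1.19% of RefSeq promoters. This motif was searched for after the sequences had been seen, and a match is a description of letters, not a binding site.

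The genomic loci of the stretches printed for families 1, 2 and 3 were compared with the peak lists. These are the loci of 1 exact stretch each, not of whole families. Of the 1938 loci of the family 1 stretch, 1453 overlapped an mESC H3K27ac peak and 1450 (74.8%) one of the peaks described. 0 overlapped an NIH3T3 H3K27ac peak, 1 overlapped an mESC Ctr9 peak and 7 overlapped an RNAPII Ser5p peak. Of the 2604 loci of the family 2 stretch, 502 (19.3%) met one of these peaks, 0 met NIH3T3 H3K27ac and 9 met Ctr9. Of the 521 loci of the family 3 stretch, which few peaks of that family hold, 63 (12.1%) did, 1 met NIH3T3 H3K27ac and 9 met Ctr9. Because the families were built from peaks chosen for lacking NIH3T3 H3K27ac and Ctr9, the counts for those lists are in part set by the selection and are given as a description. Among all 34215 NIH3T3 H3K27ac peaks on assembled chromosomes, 0 held a stretch shared by members of family 1 or family 2 at the summit, against 1911 (9.90%) and 592 (3.07%) of 19305 mESC H3K27ac peaks. These mESC H3K27ac counts, like that of family 3 below, include the peaks from which the families were built (1818 and 580 in families 1 and 2). Among the 44738 mESC Ctr9 peaks, 75 (0.168%) held family 1 and 28 (0.0626%) held family 2.

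**Figure D1:**
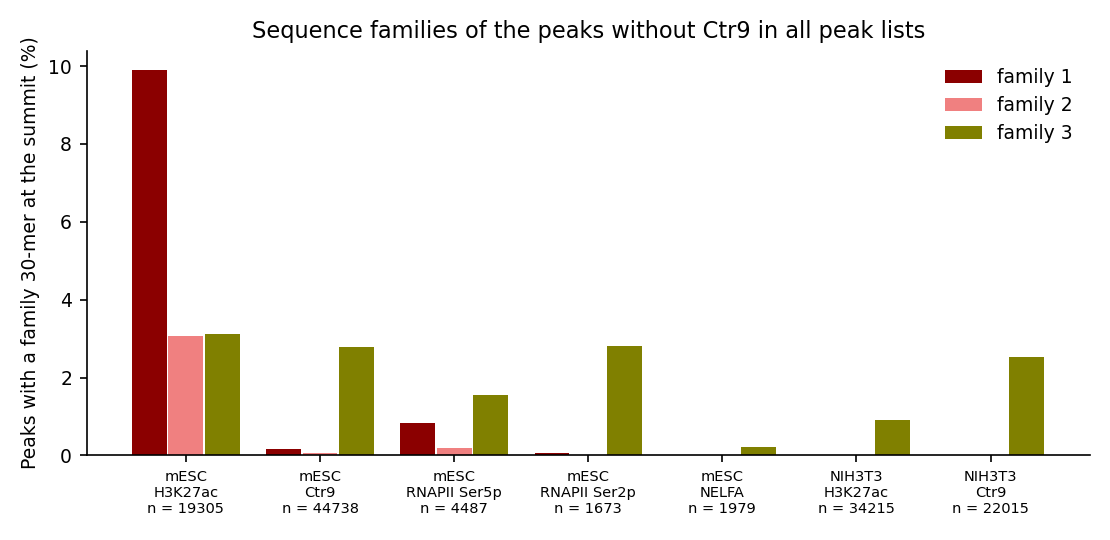
Share of the peaks in each of the 7 lists (y axis, %) that hold, within 100 bp of the summit, a 30-base stretch of sequence family 1, 2 or 3, with the number of peaks on assembled chromosomes under each list. Families 1 and 2 appear mainly in mESC H3K27ac (9.90% and 3.07%), whereas family 3 also appears in the Ctr9 lists of mESCs (2.80%) and NIH3T3 cells (2.54%). The mESC H3K27ac bars include the peaks that defined the families. Those peaks were chosen for lacking mESC Ctr9 and NIH3T3 H3K27ac, so the bars of these lists are in part set by the selection.

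Family 3 had another pattern. Its stretches were present in 604 mESC H3K27ac peaks (3.13%), 1251 mESC Ctr9 peaks (2.80%), 47 RNAPII Ser2p peaks (2.81%), 70 RNAPII Ser5p peaks (1.56%), 559 NIH3T3 Ctr9 peaks (2.54%), 313 NIH3T3 H3K27ac peaks (0.915%) and 4 of 1979 NELFA peaks (0.202%). The reads had been aligned with bowtie2 defaults, which place a read that matches several copies at one of them, so which copies carry the mark cannot be told. A fold enrichment at a copy can hold reads from other copies.

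Peaks in the 3 large families had a higher fold enrichment than those outside families. Median fold enrichment over the local background was 5.08 in family 1 (4.96 to 5.13), 3.72 in family 2 (3.61 to 3.83), 3.82 in family 3 (3.70 to 3.93) and 3.40 outside the families (3.38 to 3.43, n = 4918). The mESC-only peaks with Ctr9 had a median of 3.28 (3.23 to 3.33). The intervals of families 1, 2 and 3 all lay above both, whereas that of the 238 peaks in the other families (median 3.49, 3.38 to 3.61) overlapped that outside the families. Family 1 also had the widest peaks, with a median of 530 bps (506 to 556) against 328 bps (323 to 334) outside the families and 426 bps (415 to 437) with Ctr9. By the −log10 q-value of the peak call, the order was not the same. Medians were 13.2 (12.5 to 13.4) in families, 8.80 (8.60 to 9.06) outside them and 13.0 (12.4 to 13.6) with Ctr9. The intervals in families and with Ctr9 overlap. Since fold enrichment and q-value come from the library that selected the peaks, these values describe the regions.

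**Figure D2:**
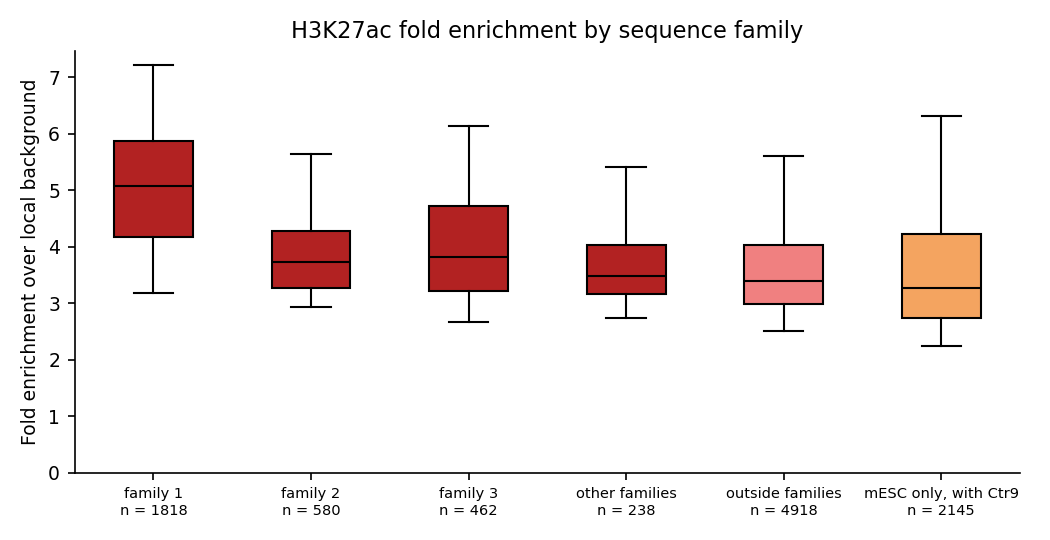
Fold enrichment of H3K27ac (y axis) for peaks without Ctr9 in sequence families 1 to 3, in the other families and outside families, and for mESC-only peaks with Ctr9. Lines are medians, boxes the middle 50% and whiskers the 5th and 95th percentiles. Family 1 sits highest (median 5.08), and peaks outside families lie near those with Ctr9 (3.40 and 3.28).

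Over all 8117 regions, median fold enrichment was 3.69 (3.64 to 3.72) and median width 358 bps (353 to 362). The shared classes were stronger, with medians of 4.66 (without Ctr9) and 4.92 (with Ctr9). At the edge of the selection, the 73 regions with a Ctr9 peak at most 100 bp away had a median fold enrichment of 3.16, and the 94 mESC-only peaks that overlapped Ctr9 by at most 100 bp had 2.94. Most regions were far from any Ctr9 peak, with a median gap of 80.9 kb (75.1 to 89.2 kb), and 754 (9.41%) had one within 1 kb. In families the median gap was 421 kb, and outside them it was 24.7 kb. The selection itself excluded any overlap with a Ctr9 peak. In the shared class without Ctr9, which has the same exclusion, the median gap was 11.2 kb (10.7 to 11.9 kb). Of that class, 12.9% (12.1% to 13.7%) had a Ctr9 peak within 1 kb.

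The regions lay mostly far from the starts of protein-coding genes. Summits were assigned to the nearest transcription start site (TSS) of a protein-coding gene in GENCODE M21, and the median distance was 46.4 kb (44.7 to 48.5 kb). It was 19.1 kb (17.7 to 20.6 kb) for mESC-only peaks with Ctr9, and 268 and 392 bps for the shared classes without and with Ctr9. Within 1 kb of a TSS lay 440 regions, or 5.49% (5.0% to 6.01%), against 6.62% (5.60% to 7.76%) with Ctr9, 81.9% in the shared class without Ctr9 and 68.8% in the shared class with Ctr9. More than 100 kb from any TSS lay 33.3% (32.2% to 34.3%), against 9.84% (8.61% to 11.2%) with Ctr9. Within families this share was 54.9% (53.2% to 56.7%), and outside them 19.6% (18.5% to 20.8%), still above the class with Ctr9.

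**Figure D3:**
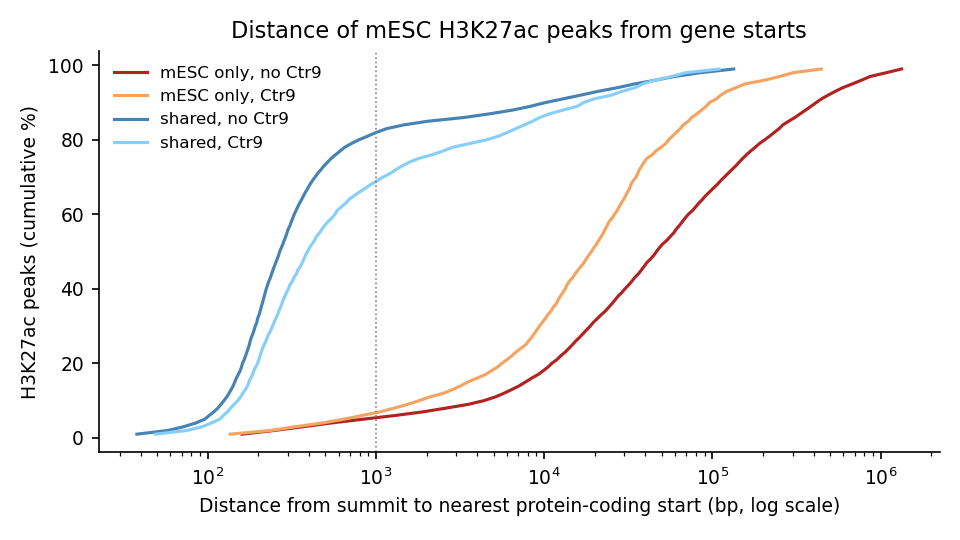
Cumulative share of H3K27ac peaks (y axis, %) by the distance of the summit from the nearest protein-coding TSS (x axis, bp, log scale) for the 4 classes, with a dotted line at 1 kb. Medians lie at 46.4 kb without Ctr9 and 19.1 kb with Ctr9 among mESC-only peaks, and below 1 kb in both shared classes.

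By place, 2887 summits (36.0%) lay in introns of protein-coding genes, 195 (2.43%) in exons, 74 (0.923%) within 1 kb of a gene end and 4420 (55.1%) elsewhere. The class with Ctr9 had more summits near gene ends (5.08%, 4.19% to 6.10%) and in exons (6.01%, 5.05% to 7.10%), and fewer elsewhere (42.0%, 39.9% to 44.1%). For the share elsewhere this held with the families included (72.6% of their members), and outside the families it was 44.2% (42.8% to 45.6%), an interval that overlaps that with Ctr9. Genes of long non-coding RNAs held 8.38% of the summits without Ctr9 and 9.74% of those with Ctr9, with overlapping intervals. On chromosome X lay 408 regions and 39 mESC-only peaks with Ctr9, a ratio of 10.5, whereas on the autosomes this ratio ran from 2.19 (chromosome 17) to 5.87 (chromosome 13). Of the 408 regions on X, 297 (72.8%) belonged to sequence families. Outside the families, X held 2.26% of the regions (1.86% to 2.71%), and with Ctr9 1.82% (1.30% to 2.48%).

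Regions often had neighbours of the same kind. Another lay within 12.5 kb of 3221 regions (40.2%), and a mESC-only peak with Ctr9 lay within that distance of 751 (9.37%). The regions outnumber those peaks (8016 against 2145), so these shares were not compared. Joined at this distance, the regions formed 6191 groups, of which 1396 held 2 or more and 22 held 5 or more and the largest 8. A group of 7 spanned 17.5 kb on chromosome 13 near Gm10767 (chr13:66698461-66715974), and another 7 spanned 12.4 kb near Rnf111, a ubiquitin ligase gene (chr9:70475829-70488260).

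RNAPII and NELFA peaks were rare at the regions. The lists held 4490 Ser5p, 1675 Ser2p and 1980 NELFA peaks, so no more than a part of the 19417 H3K27ac peaks could meet one. RNAPII Ser5p peaks overlapped 140 of 8117, or 1.72% (1.45% to 2.03%), against 37.8% (35.8% to 39.9%) of mESC-only peaks with Ctr9, 10.3% (9.62% to 11.1%) in the shared class without Ctr9 and 53.8% (51.7% to 55.8%) in the shared class with Ctr9. RNAPII Ser2p peaks overlapped 0 of 8117 regions, which allows a share of up to 0.0370% (3 counts of the total) or, as the upper limit of the exact interval, 0.0454%, against 119 of 2148 with Ctr9 (5.54%, 4.61% to 6.59%), 3 of 6821 in the shared class without Ctr9 (0.0440%, 0.00907% to 0.128%) and 13.5% (12.1% to 14.9%) in the shared class with Ctr9. The interval of the shared class without Ctr9 overlaps that of the regions. NELFA peaks overlapped 45 regions (0.554%, 0.405% to 0.741%) and 160 mESC-only peaks with Ctr9 (7.45%, 6.37% to 8.64%). In the shared classes they overlapped 14.0% (13.2% to 14.8%) without Ctr9 and 30.9% (29.1% to 32.9%) with Ctr9. The shared class without Ctr9 thus had a higher NELFA share than the mESC-only class with Ctr9. In all, 7956 regions (98.0%) met none of the 3 lists, against 61.1% of mESC-only peaks with Ctr9. In the shared classes this share was 81.6% without Ctr9 and 40.7% with Ctr9. These lists were not used to choose the regions, and the intervals of both mESC-only classes lay far apart for each. The intervals treat neighbouring and repeated peaks as independent. The regions were also narrower (median 358 bps) than mESC-only peaks with Ctr9 (426 bps), and a wider peak can meet more peaks by length alone. The part of width was not tested.

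**Figure D4:**
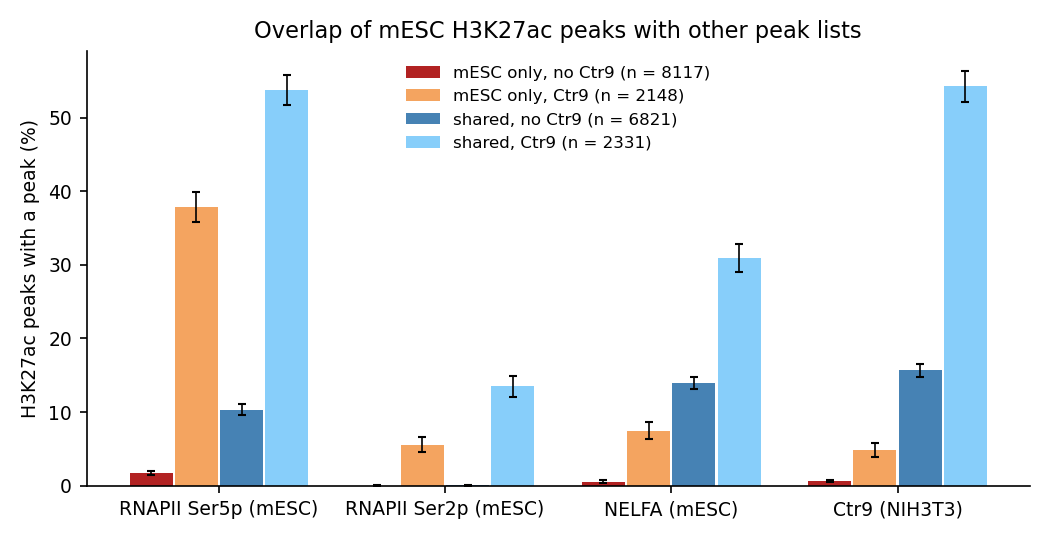
Share of mESC H3K27ac peaks (y axis, %) that overlap an RNAPII Ser5p, RNAPII Ser2p or NELFA peak of mESCs or a Ctr9 peak of NIH3T3 cells, for the 4 classes; bars start at 0 and error bars are 95% exact intervals. The mESC-only peaks without Ctr9 have the lowest share for Ser5p (1.72%), NELFA (0.554%) and NIH3T3 Ctr9 (0.591%), and 0 of 8117 meet Ser2p.

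The overlaps were also counted in groups of peaks by fold enrichment, which comes from the library that selected the regions. With mESC-only peaks divided at 3.22 and 4.17, Ser5p met 1.54%, 1.44% and 2.16% of the regions from the low to the high group, against 36.1%, 36.5% and 42.3% with Ctr9. Away from TSSs, Ser5p met 1.39% (1.13% to 1.68%) of 7576 regions and 36.8% (34.7% to 38.9%) of 2003 with Ctr9. Outside the sequence families it met 2.40% (1.99% to 2.87%), and within 1 kb of a TSS 7.95% (5.60% to 10.9%) of 440 regions. Ctr9 of NIH3T3 cells met 48 regions (0.591%, 0.436% to 0.783%) and 4.80% (3.93% to 5.79%) of mESC-only peaks with Ctr9.

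Among the 24 regions with both Ser5p and NELFA, the strongest lay just inside Spint2, which encodes a serine protease inhibitor, with a fold enrichment of 8.07 at 73 bp downstream of the TSS. Its gene had a TPM of 145 in mESCs, against 0.110 in NIH3T3 cells. A Ctr9 peak lay 790 bp away. The next was at Tubb2b, a beta-tubulin gene (6.69, 232 bp downstream, TPM of 221 and 12.9), where Ctr9 began 19 bp away. The third was at Cox6b2, a subunit gene of cytochrome c oxidase (6.56, 237 bp downstream, TPM of 60.8 and 0.396), with Ctr9 15 bp away. These 3 regions each had a Ctr9 peak within 1 kb that missed them. Agpat2, an acyltransferase gene, also had its region at the TSS (5.92, within 1 kb downstream, TPM of 23.5 and 1.57), with Ctr9 3.98 kb away. Another of the 5 strongest of the 24 was near Pomc (6.09, TPM of 0.608 and 0.0964), 240 kb from Ctr9.

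Genes near the regions covered a wide range of expression, and many were low or silent. The regions had 4271 distinct nearest protein-coding genes, and 4267 of these were found in the RNA-seq tables. Their median TPM was 4.06 (3.51 to 4.72) in mESCs and 2.3 (1.82 to 2.81) in NIH3T3 cells, against 19.3 (17.4 to 21.6) and 7.10 (6.19 to 8.37) for 1189 genes nearest to mESC-only peaks with Ctr9, and 1.24 and 0.801 for all 21905 protein-coding genes. Of the genes near the regions, 61.5% had a TPM of at least 1 in mESCs and 18.2% a TPM of 0. Over all protein-coding genes these shares were 51.3% and 26.2%. With TPM summed over the transcripts of a gene, the median in mESCs for genes near the regions was 6.56 (5.51 to 7.44). On the scale of log2(TPM + 1), 981 genes near the regions (23.0%, 21.7% to 24.3%) were at least 2-fold higher in mESCs, where 13.5% of all protein-coding genes were. At least 2-fold lower were 483 (11.3%, 10.4% to 12.3%), where 11.3% of all genes were. With Ctr9 the shares were 43.6% (40.7% to 46.4%) and 5.89% (4.62% to 7.38%). The 628 genes that had both kinds of peak nearest had a median TPM of 19.3 in mESCs, and the 3639 with regions but no mESC-only peak with Ctr9 had 2.72 (2.29 to 3.20). Of genes nearest to shared peaks, 16.0% (15.0% to 17.0%) without Ctr9 and 23.2% (21.2% to 25.2%) with Ctr9 were at least 2-fold higher in mESCs. The interval of the shared class with Ctr9 overlaps that of the regions.

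Distance and repeated sequence both moved with these values, and their part in them was not tested. Where a region lay within 10 kb of the TSS, the median TPM in mESCs was 11.1 (10.1 to 12.8, n = 1167) and 41.6% (38.8% to 44.5%) of genes were 2-fold higher, against 29.3 (25.3 to 33.7, n = 485) and 56.7% (52.2% to 61.2%) with Ctr9. Where it lay within 1 kb, 244 of 386 genes were 2-fold higher in mESCs (63.2%, 58.2% to 68.0%) and 9 were 2-fold lower, with a median TPM of 12.7 (mESCs) against 1.33 (NIH3T3). For the 124 such genes with Ctr9 the share was 72.6% (63.8% to 80.2%), an interval that overlaps, whereas the median TPM in mESCs, 31.9 (20.8 to 46.4), lay above that of the regions (10.7 to 14.1). For the 1944 genes nearest to family members, the median TPM was 0.281 (0.202 to 0.402), 12.4% (11.0% to 14.0%) were 2-fold higher and 13.8% (12.3% to 15.4%) 2-fold lower, and outside the families these values were 8.70 (7.84 to 9.59), 30.5% (28.8% to 32.2%) and 9.70% (8.65% to 10.8%).

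**Figure D5:**
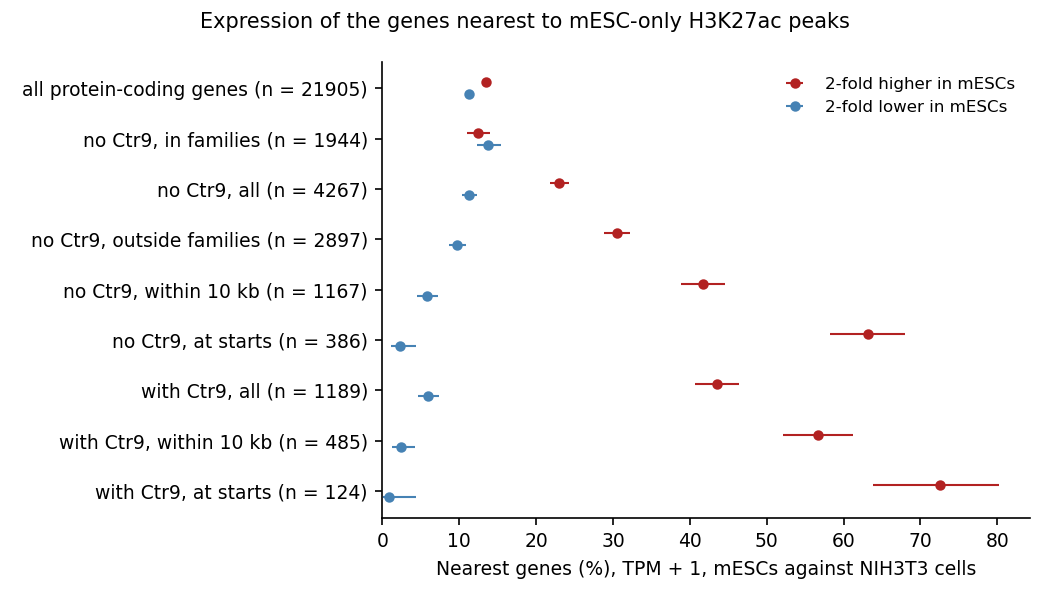
Share of nearest protein-coding genes (x axis, %) at least 2-fold higher (red) or lower (blue) in mESCs than in NIH3T3 cells on TPM + 1, with 95% exact intervals, for all protein-coding genes and for genes nearest to mESC-only H3K27ac peaks without or with Ctr9. Genes nearest to family members (12.4% higher) lie near all genes (13.5%), and genes with a region at the TSS reach 63.2%. Genes nearest to shared peaks are not drawn (16.0% higher without Ctr9 and 23.2% with Ctr9).

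Several strong regions stood apart from genes that were expressed. The region of highest fold enrichment on assembled chromosomes (14.2) lay in an intron of Ppp2r2b, a regulatory subunit of protein phosphatase 2A, and this gene had a TPM of 0 in both cell types. The second (12.7) lay 231 kb upstream of Nt5e, which encodes an ectonucleotidase (TPM of 0.475 in mESCs). The bases around its summit are shown because they repeat with a period of 16 bp at an identity of 100%. The region at Ppp2r2b repeated with a period of 56 bp at 97.8%. Only 49 regions (0.611%, 0.453% to 0.807%) had such a period of 2 to 60 bp at 80% identity or more, 0 of them in the families, and 4 of 2145 with Ctr9 did (0.186%, 0.0508% to 0.477%).

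Nt5e, chr9:88096426-88096526, plus strand: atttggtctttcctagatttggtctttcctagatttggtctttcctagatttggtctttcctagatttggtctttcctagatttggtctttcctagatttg

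The other 6 of the 8 strongest regions showed no such period. Beside the one near Rarb, they lay 131 kb upstream of Zfp521, a zinc-finger gene (12.6, family 3), 4.15 kb upstream of Nyx (12.6), in an intron of Robo1, an axon guidance receptor gene with a TPM of 7.14 (mESCs) against 0.0552 (NIH3T3), with a fold enrichment of 12, and 125 kb upstream of 4933412E24Rik (11.6). The strongest at a TSS was 276 bp downstream of the start of Renbp, which encodes a renin-binding protein (11.1), with a TPM of 56.0 against 7.44 in NIH3T3 cells, and a Ctr9 peak lay 3.24 kb away. None of these 8 regions met RNAPII Ser5p or NELFA. The summits near Nyx, Robo1 and Renbp are shown as regions of high fold enrichment outside the families and without a short period.

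Nyx, chrX:13461912-13462012, plus strand: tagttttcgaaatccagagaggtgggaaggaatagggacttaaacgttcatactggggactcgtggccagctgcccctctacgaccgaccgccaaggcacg
Robo1, chr16:72662958-72663058, plus strand: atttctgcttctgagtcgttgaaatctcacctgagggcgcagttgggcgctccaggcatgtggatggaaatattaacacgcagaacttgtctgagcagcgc
Renbp, chrX:73930524-73930624, plus strand: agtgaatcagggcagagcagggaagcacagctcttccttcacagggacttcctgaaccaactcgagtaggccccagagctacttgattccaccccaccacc

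The 5 widest regions on assembled chromosomes ran from 1843 to 2120 bps. Of these, 4 were members of family 1, nearest to Sox4, Lrfn5, Sult2a3 and Pard3b, and the fifth lay in an intron 51.4 kb downstream of the TSS of Cyp51, a gene of sterol synthesis. Sox4 is a transcription factor gene that was higher in NIH3T3 cells (TPM of 105) than in mESCs (2.85).

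The genes nearest to the most regions were Zfp386 (25), Pik3c3 and Rab3c (17 each), 2410141K09Rik (16), Ptprk and Tbl1xr1 (15 each), and Gm10767 and Pcdh7 (14 each). The 25 regions assigned to Zfp386 spanned chr12:114928896-116011797, and for 18 of them the nearest annotated gene of any kind was an immunoglobulin heavy-chain variable gene or pseudogene. All 14 regions nearest to Pcdh7, a protocadherin gene listed at a TPM of 0 in mESCs, were family members, whereas 0 of the 16 at 2410141K09Rik, a zinc-finger gene with a log2 ratio of 6.35 of mESCs over NIH3T3 cells, were. Pik3c3 had 7 in families of 17, and a TPM of 37.8 (mESCs) against 12 (NIH3T3).

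The pluripotency genes were examined by the peaks to which they were nearest. Of 30 pluripotency genes, all at least 2-fold higher in mESCs, 12 had a region nearest (30 regions, 7 in families) and 24 had a mESC-only peak with Ctr9 nearest (78 peaks), with 10 genes having both. Over all protein-coding genes, 19.5% had a region nearest and 5.42% a mESC-only peak with Ctr9. The strongest lay 39.5 kb downstream of the TSS of Tbx3, a transcription factor gene of the naive network (fold enrichment 9.27, TPM of 38.7 in mESCs against 10.1 in NIH3T3 cells), on a listed super enhancer (SE) and 23.6 kb from Ctr9. Klf5 had a region of 6.83 at 211 kb, and Nodal, a signalling ligand, one of 5.71 that was upstream of its TSS and 1.61 kb from Ctr9. Klf2, a Krüppel-like factor, had one of 3.88 on an SE, 2.38 kb upstream, which met Ser5p, whereas those at Tbx3, Klf5 and Nodal did not. By contrast, the strongest regions assigned to Klf4, Sox2, Nr5a2 and Dppa4 were family 1 members between 335 and 530 kb from the TSS. The closest regions to these TSSs lay at 529 bp (Dppa4), 6039 bp (Nr5a2), 68514 bp (Klf4) and 94573 bp (Sox2). Dppa4 had a TPM of 117 in mESCs against 0 in NIH3T3 cells. The summits at Tbx3 and, as the strongest that held an octamer (capitals, the recognition letters of Pou factors such as Oct4), in an intron of Kcnt2 and, outside the larger families, of Klf8 are shown.

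Tbx3, chr5:119710083-119710183, plus strand: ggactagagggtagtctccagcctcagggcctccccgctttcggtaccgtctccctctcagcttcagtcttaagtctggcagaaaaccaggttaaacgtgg
Kcnt2, chr1:140453387-140453487, plus strand: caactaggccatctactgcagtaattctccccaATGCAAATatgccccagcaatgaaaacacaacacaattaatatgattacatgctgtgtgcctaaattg
Klf8, chrX:153281674-153281774, plus strand: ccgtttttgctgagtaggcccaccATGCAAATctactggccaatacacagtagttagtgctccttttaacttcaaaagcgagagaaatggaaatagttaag

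Signalling genes had regions as well. Their counts can be read against the same shares (4271 and 1190 genes). Of 12 Wnt genes, 7 had a region nearest and 1 a mESC-only peak with Ctr9. These included 2 Wnt effectors, Tcf7l2 with 5 regions (TPM of 1.45 in mESCs against 5.67 in NIH3T3 cells) and Tcf7l1 with 4 (30.7 and 11.4), and Axin2, a feedback inhibitor with 1 (2.98 and 0.0626). Of 14 BMP and Nodal genes, 6 had a region and 0 a peak with Ctr9, among them Smad7, an inhibitory Smad with 5 regions (28.8 and 19.3), and Bmp4, a ligand with 1 (120 and 0.0735). None of the 15 Wnt and 13 BMP and Nodal regions was in a family. Of 7 LIF and STAT3 genes, 3 had a region and 2 a peak with Ctr9. Il6st, the signalling receptor subunit, had 4 (24.0 and 80.2) and Pim1, a kinase gene, had 5 (32.8 and 9.88). Of 11 FGF and ERK genes, 4 had a region and 5 a peak with Ctr9. Of 16 chromatin and DNA methylation genes, 5 had a region and 7 a peak with Ctr9, and Eed, a Polycomb subunit, had 4 regions (190 and 28.6). No test of these lists was made.

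For the other lists, the counts can be read against the 19.5% of all protein-coding genes with a region nearest. Of 11 formative and primed genes, 3 had a region, of 22 lineage genes, with a median TPM of 0.256 in mESCs, 3 did (Eomes, Sox17 and Pax3), and of 16 fibroblast genes, all at least 2-fold lower in mESCs, 4 did. All 6 regions nearest to the fibroblast genes Col3a1, Vim, Lum and Dcn were family members.

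Among nearest genes of highest TPM in mESCs were Eef1a1 (10124), a translation elongation factor gene, Hsp90aa1 (3455), a chaperone gene, Ftl1-ps1 (2335), Eno1b (1527), Mif (1138), Stmn1 (1105), Pabpc1 (993) and Hspd1 (700). Ftl1-ps1 and Eno1b are near copies of Ftl1 and Eno1, so their levels are uncertain. The highest log2 ratios of mESCs over NIH3T3 cells were those of Sox2 (8.51), Ftl1-ps1 (8.48), Zfp42 (8.16), Hsd17b14 (7.94), Trap1a (7.43), Tcl1 (7.20), Bcam (7.15) and Spint2 (7.04). Among these, regions within 1 kb of the TSS were present at Ftl1-ps1, Bcam and Spint2. Cdh1, which encodes E-cadherin, also had a region 234 bp from its TSS and a TPM of 112 (mESCs) against 0.0148 (NIH3T3).

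Few regions lay in SEs. The SE coordinates listed with the study name no genome build and were taken as mm10, where 86.6% of the SEs met an mESC H3K27ac peak. Of the 231 SEs, 86 met a region, and 35 of these met no Ctr9 peak. The regions on SEs numbered 154 (1.92%, 1.63% to 2.25%), against 321 (15.0%, 13.5% to 16.5%) of the mESC-only peaks with Ctr9. In the shared classes the shares were 0.264% (0.157% to 0.417%) without Ctr9 and 2.19% (1.63% to 2.87%) with Ctr9. The interval of the shared class with Ctr9 overlaps that of the regions. Of the 154 regions, 86 lay on SEs that met a Ctr9 peak elsewhere. Only 3 of the 154 were family members, and 14 met Ser5p. Besides Tbx3, strong ones were near Slc16a14 (8.33), Pim1 (6.17) and Dbx1 (5.55), with no Ser5p or NELFA peak at any of these.

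Base composition followed the families. The median ratio of observed to expected CpG within 250 bp of the summit was 0.326 (0.317 to 0.335) over all regions, 0.560 (0.555 to 0.564) in families and 0.226 (0.221 to 0.231) outside them. It was 0.268 (0.259 to 0.278) with Ctr9 and 0.795 and 0.799 in the shared classes. Soft-masked sequence, which the genome file gives in lower case, held the summit of 47.8% of the regions (46.7% to 48.9%), of 22.9% with Ctr9 (21.2% to 24.8%) and of 18% (16.9% to 19.1%) outside the families.

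Apart from GCCATCTT, 8 motifs of known factors were searched for on both strands within 100 bp of the summit, and 1 had an interval above that of sequence 2 kb to either side. The octamer ATGCAAAT was present in 0.574% (0.420% to 0.765%) of regions, 1.35% of flanking windows, 0.373% of peaks with Ctr9 and 1.38% of RefSeq promoters. The Sox letters CATTGT were present in 6.19% of regions and 9.88% of flanks, the Esrrb letters AAGGTCA in 2.67% and 3.83%, the Stat letters TTCNNNGAA in 6.27% and 6.08%, the AP-1 letters TGANTCA in 4.84% and 4.80%, the Nrf1 letters GCGCATGCG in 0.0624% and 0.0374%, and the E-box CACGTG in 2.27% and 2.01%. The exception was the GC box GGGGCGG (1.57%, 1.31% to 1.87%, against 1.01%, 0.861% to 1.18%), and it was present in 16.8% of the shared class without Ctr9 and 19.7% of promoters. Its interval no longer lay above that of the flanks with 50 bp on each side of the summit or away from TSSs. Outside the families, the share in the regions was below that in their own flanks for CATTGT (9.11% against 10.7%, intervals apart) and the octamer (0.874% against 1.36%, intervals overlapping). It was above it for the GC box (2.34% against 1.35%, intervals apart), and AAGGTCA (4.15% against 3.86%), the Stat letters (7.04% against 6.19%) and the E-box (3.19% against 2.53%) had higher shares with overlapping intervals.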

How the data were processed

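Reads of the ChIP-seq libraries were mapped by the authors to mm10 (bowtie2 2.3.5.1, default settings), cleared of the ENCODE blacklist and passed to macs2 2.2.6, which called peaks per library (q below 0.01). Each deposited list gives a score, a fold enrichment (a ratio to the local background) and the −log10 of the p- and q-value at the summit. How duplicate reads were handled is not given in the sources used here. From RNA-seq, the authors deposited, for 137767 GENCODE M19 transcripts, the estimated counts and TPM of kallisto 0.46.1. A gene was given its highest transcript TPM. The 3 input libraries were not used here.

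Classes, gaps, nearest TSSs (GENCODE M21, 21938 protein-coding genes, 21905 with TPM), SE overlaps (coordinates listed with the study, build not named), 30-base stretches, motifs and intervals were computed with Python 3.11.15, using SciPy 1.17.1, NumPy 2.4.6 and pandas 2.3.3, and the code passed 12 of 12 checks on simulated data. Sequence came from RefSeq GRCm38.p6, and as much sequence at each of 32851 RefSeq promoters was searched for motifs. No test was made. Regions on unplaced scaffolds (1.24%) enter counts, fold enrichment, width and peak overlaps only. Regions named are the 8 strongest, 5 widest, 5 strongest with Ser5p and NELFA, 5 strongest on SEs and the strongest per pluripotency gene (at most 10). One of these is not reported here. Genes named are the 8 with most regions, highest TPM and highest ratio, leaving out ribosomal-protein, histone and mitochondrial genes. Cdh1, GCCATCTT, the families, Klf8, the sequence at Rarb and the tandem periods were chosen after their values were seen. The regions and lists were chosen with earlier results of these data known. A total of 38 alternatives was planned and 17 were added after seeing the data.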

Additional observations from a re-analysis of the deposited data

Results flagged for a closer look

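Of the 8117 regions, 1.24% lay on 21 scaffolds outside the assembled chromosomes, where 112 mESC H3K27ac peaks were called, all but 11 of them in this class. These regions entered no comparison of place, sequence or genes. They were flagged as signal outside the main measurement. Their fold enrichment ran from 1.30 to 18.4 with a median of 3.50, their median width was 347 bps and the widest was 4116 bps. The lists held 10 mESC Ctr9 and 26 NIH3T3 H3K27ac peaks on such scaffolds, and 0 of these regions met an RNAPII Ser5p, RNAPII Ser2p or NELFA peak.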

How the results depend on the processing

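Of 55 values under an alternative, 24 stayed within the 95% interval of the value reported (or within 1.5 times of a count) and 31 moved. No paired analysis was possible because no result came from a test. With a Ctr9 peak within 1 kb also counted as Ctr9, Ser5p met 1.11% of the regions and NIH3T3 Ctr9 0.394%, 102 regions lay on SEs, and the median TPM of nearest genes was 3.22. With a peak within 1 kb of a region counted as met, Ser5p met 3.93%, NELFA 1.37% and NIH3T3 Ctr9 1.34%. A window of 500 bp or 2500 bp gave 3.80% or 7.76% of regions at TSSs, and all annotated genes gave 8.96%. Means in place of medians gave a fold enrichment of 4.02 and a width of 430 bps. Summed TPM gave a median of 6.56, and regions within 10 kb gave 11.1 and 41.6% of genes 2-fold higher. A pseudocount of 0.1 gave 31.8%, and genes with a TPM of at least 1 in either cell type gave 34.7%. The share of all protein-coding genes under that pseudocount or filter is not given here, so these shares have no background. The CpG ratio was 0.356 within 100 bp and 0.312 away from TSSs, and with windows of 50 bp on each side or away from TSSs 0 of 8 motifs lay above the flanks, where 1 did in the main setting. Outside the sequence families, which were defined with the data in view, the 4918 regions had a median fold enrichment of 3.40, a width of 328 bps, 8.64% at TSSs, shares of 2.40% (Ser5p), 0.854% (NELFA) and 0.976% (NIH3T3 Ctr9), a median TPM of 8.70, 30.5% of genes 2-fold higher and a CpG ratio of 0.226. The share with Ser5p stayed below 4% in the 4 alternatives in which it was computed. Family membership (3098) was 2609 with 50-base stretches and 2720 with 50 bp on each side of the summit. For single motifs, 16 of 24 shares moved. Without read counts, peaks too weak to be called at this depth cannot be told from absent ones.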
